A study of Rattus rattus with 8 samples.

Results

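Intestinal epithelium makes hydrogen peroxide and superoxide at its surface with membrane enzymes that pass electrons from NADPH to oxygen. Dual oxidase 2, encoded by Duox2, releases hydrogen peroxide and leaves the endoplasmic reticulum only together with its maturation factor, encoded by Duoxa2. The other oxidase of the colon, encoded by Nox1, releases superoxide and works as a complex with the membrane partner p22phox (Cyba), an organizer (Noxo1) and an activator (Noxa1). Both systems are known for their part in the defence of the mucosa against microbes, and Duox2 is known to be induced by bacteria and by cytokines.

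These genes were examined in proximal colonic epithelium of 2 inbred strains of rat. The spontaneously hypertensive rat (SHR) was set against the Wistar-Kyoto rat (WKY), the strain usually taken as its normotensive control, with 4 libraries of each. The labels give no age, sex, treatment or sampling time, and do not state that libraries come from different animals. The p-values therefore refer only to library-to-library spread, which may be technical. The gene set and the related lists below were chosen with earlier results of these data known. Counts of called genes set beside the share of all genes are therefore a description only. The gene set was chosen by name (Duox2, Duoxa2, Nox1, Noxo1, Noxa1 and Cyba). Of these 6 genes, 5 had a row among the 11762 genes of the deposited table, and Nox1 had none and was not analysed here. All 5 passed the filter on low values, which asked for at least 1 FPKM (fragments per kilobase of transcript, scaled for library size) in at least 4 libraries.

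The FPKM values summed to between 882295 and 1066833 per library, and 10708 to 11124 genes reached 1 FPKM. The depth of the libraries is unknown. The labelled epithelium carried its defining markers: all 13 epithelial genes examined had rows, and their summed level was 17990 to 20450 FPKM in SHR and 17980 to 21130 FPKM in WKY libraries. The summed level of T and natural killer cell markers was lower in all SHR libraries (15.2 to 39.7 FPKM) than in all WKY libraries (49.5 to 214.8 FPKM). So was that of goblet cell markers (2439 to 3288 FPKM in SHR, 4001 to 5440 FPKM in WKY). Of 8 tested T and natural killer cell markers, 4 were lower at a limma adjusted p under 0.05, and 3 did not overlap between strains. Of 10 tested goblet cell markers, 4 were lower and 4 did not overlap. Among all tested genes 7.48% were lower, and 16.1% did not overlap. Of 7 endothelial markers only Esam had a row, and it was also lower in all SHR libraries (2.11 to 2.86 FPKM) than in all WKY libraries (3.15 to 4.59 FPKM). In bulk RNA, fewer cells of a type and less RNA per cell cannot be told apart. The part of these differences in the results below was not tested.

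Duox2, Noxo1 and Cyba were higher in SHR than in WKY epithelium, Noxa1 was lower, and Duoxa2 did not pass the test. Of the 5 genes, 4 had an adjusted p under 0.05, where 10.9% of the 11069 tested genes did (3.4% higher and 7.48% lower in SHR). Among all genes 376 passed as higher and 828 as lower, while quantile normalization gave 642 and 644, and centring of libraries on their medians gave 541 and 714. The 4 oxidase calls held under both. The libraries of the 2 strains did not overlap for 4 of the 5 genes, with SHR above for 3 and below for 1, where they did not overlap for 16.1% of tested genes (5.28% with SHR above and 10.8% below). Log2 fold changes are SHR over WKY on the scale of log2(FPKM + 1), tested with limma over all tested genes with Benjamini-Hochberg adjustment.

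**Figure D1:**
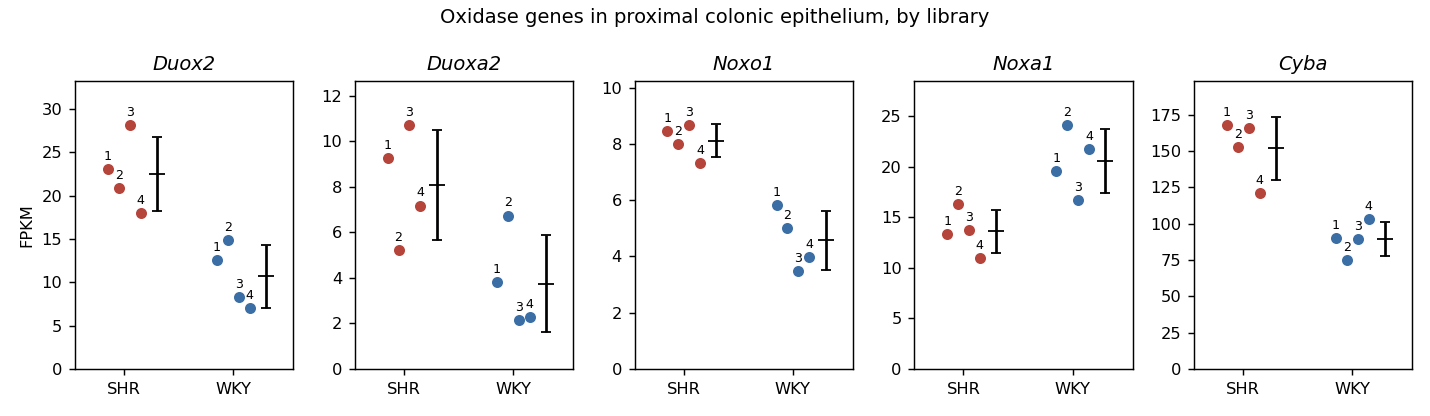
FPKM (vertical axis, from 0) of each oxidase gene in 4 SHR and 4 WKY libraries. Points are libraries with their replicate number, and black bars give the mean and SD; the strains overlap only for Duoxa2, where SHR replicate 2 (5.21 FPKM) lies below WKY replicate 2 (6.74 FPKM).

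Duox2 (ENSRNOG00000017395), the peroxide-producing enzyme itself, was at 23.09, 20.88, 28.18 and 18.0 FPKM in SHR replicates 1 to 4, against 12.58, 14.88, 8.36 and 6.98 FPKM in WKY replicates 1 to 4. The strains did not overlap, and the closest libraries were SHR replicate 4 and WKY replicate 2. The mean was 22.5 ± 4.30 FPKM in SHR and 10.7 ± 3.67 FPKM in WKY (SD, n = 4 each), a ratio of 2.11. The log2 fold change was 1.05 ± 0.21 (SE, limma adjusted p = 0.00873). It passed in each fit that left out 1 library, with adjusted p between 0.00315 and 0.0304.

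Duoxa2 (ENSRNOG00000017805), the maturation factor of Duox2, was at 9.28, 5.21, 10.72 and 7.18 FPKM in SHR, against 3.83, 6.74, 2.14 and 2.29 FPKM in WKY libraries. Here the strains overlapped, because WKY replicate 2 lay above SHR replicate 2. The mean was 8.10 ± 2.41 FPKM in SHR and 3.75 ± 2.14 FPKM in WKY (SD, n = 4 each), and the WKY libraries varied more for this gene than for the others, with an SD of 56.9% of the mean. The log2 fold change was 1.00 ± 0.30 (SE) and did not pass (limma adjusted p = 0.062). The adjusted p was 0.00615 without WKY replicate 2 and 0.0422 without SHR replicate 2. The authors' deposited table gives Duoxa2 a log2 fold change of 1.17 with a q-value of 0.0122, and all 5 genes have a q-value under 0.05 there, as do 15.3% of the genes in that table. Its size is close to that of Duox2, but the call depends on the test and on these libraries.

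The proportion of the maturation factor to its oxidase was not seen to differ between the strains. The log2 ratio of Duoxa2 to Duox2 was -1.31, -1.98, -1.39 and -1.31 in SHR, and -1.69, -1.13, -1.92 and -1.57 in WKY libraries. The means were -1.50 ± 0.33 in SHR and -1.58 ± 0.33 in WKY (SD, n = 4 each). The strains overlapped, and the difference of 0.08 was well within the spread (exact permutation test over libraries, two-sided, p = 0.743, where 0.0286 is the smallest that 4 against 4 allows). With a spread of this size the test does not show that the ratios are equal.

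Among the partner proteins of Nox1, the organizer Noxo1 (ENSRNOG00000025117) was at 8.47, 8.01, 8.68 and 7.34 FPKM in SHR, against 5.84, 5.0, 3.49 and 3.97 FPKM in WKY libraries. All SHR libraries lay above all WKY libraries. They were also close together, with an SD of 7.30% of the mean in SHR and 23.0% in WKY. The mean was 8.12 ± 0.593 FPKM in SHR and 4.58 ± 1.05 FPKM in WKY (SD, n = 4 each), and limma gave a log2 fold change of 0.73 ± 0.14 (SE, adjusted p = 0.00656). It passed without each single library, with adjusted p between 0.00524 and 0.0304.

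Noxa1 (ENSRNOG00000009286), the activator that binds Nox1 and Rac, went the other way. It was at 13.39, 16.31, 13.73 and 11.02 FPKM in SHR, against 19.62, 24.15, 16.73 and 21.74 FPKM in WKY libraries. The strains did not overlap, though SHR replicate 2 lay close below WKY replicate 3. The mean was 13.6 ± 2.17 FPKM in SHR and 20.6 ± 3.15 FPKM in WKY (SD, n = 4 each), and the log2 fold change was -0.56 ± 0.14 (SE, limma adjusted p = 0.025). The call was lost without WKY replicate 1 (adjusted p = 0.0529), WKY replicate 2 (0.0766), WKY replicate 4 (0.0812) or SHR replicate 3 (0.0606), while the log2 fold change stayed between -0.65 and -0.47.

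Cyba (ENSRNOG00000013014), the membrane partner that stabilizes Nox1 and the phagocyte oxidase, was the most abundant of the 5 genes. It was at 167.89, 152.37, 165.58 and 120.89 FPKM in SHR, against 90.39, 75.03, 89.45 and 103.29 FPKM in WKY libraries. The strains did not overlap, and SHR replicate 4 lay nearest to WKY. The mean was 151.7 ± 21.6 FPKM in SHR and 89.5 ± 11.6 FPKM in WKY (SD, n = 4 each), a ratio of 1.69, and the log2 fold change was 0.75 ± 0.13 (SE, limma adjusted p = 0.00402). It passed without each single library, with adjusted p between 0.00127 and 0.0159.

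Cyba is also made by phagocytes, so genes of those cells were set beside it. Cybb, the catalytic subunit of the phagocyte oxidase, was at 0.21, 0.29, 0.38 and 0.34 FPKM in SHR, against 0.66, 0.16, 0.58 and 0.58 FPKM in WKY libraries, which was too low to be tested. Ncf1, the organizer of the phagocyte oxidase, was at 0.755 ± 0.327 FPKM in SHR and 1.62 ± 0.721 FPKM in WKY (SD, n = 4 each; limma adjusted p = 0.101). The authors' own values give Ncf1 a log2 fold change of -1.16 with a q-value of 0.0339. The common leukocyte marker Ptprc was lower in SHR, at 1.04 ± 0.379 FPKM against 3.82 ± 1.83 FPKM in WKY (adjusted p = 0.0205). Of 20 phagocyte markers 10 had a row and 8 were tested, of which 1 rose (Cd14) and 2 fell (Ptprc and Laptm5), beside 3.4% higher and 7.48% lower among all tested genes. Cd14 made up most of the summed marker level, which was 141.9 to 167.8 FPKM in SHR and 107.0 to 151.4 FPKM in WKY libraries. Among those without a row were Itgam, Adgre1 and Mpo.

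**Figure D2:**
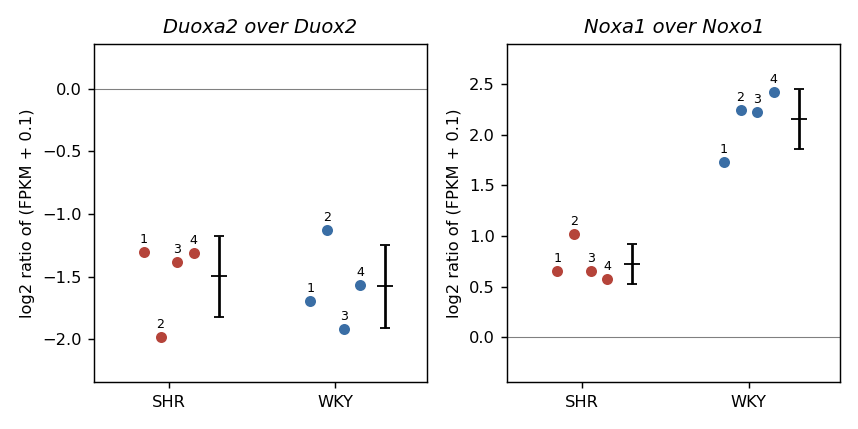
Log2 ratio of (FPKM + 0.1) for Duoxa2 over Duox2 and for Noxa1 over Noxo1 (vertical axes), per library, with mean and SD as black bars. The first ratio overlaps between SHR and WKY, and the second lies between 0.58 and 1.02 in SHR and between 1.73 and 2.42 in WKY libraries.

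Because the organizer and the activator changed in opposite directions, their balance differed between the strains. Noxa1 was 1.57, 2.02, 1.58 and 1.50 times Noxo1 in SHR libraries, against 3.32, 4.76, 4.69 and 5.37 times in WKY libraries. Every SHR library lay below every WKY library. That separation follows from those of Noxo1 and Noxa1 given above and is no further evidence. The mean log2 ratio was 0.73 ± 0.20 in SHR and 2.16 ± 0.30 in WKY (SD, n = 4 each), a difference of -1.43. This pair was chosen after the values were seen, in place of the planned ratios over Nox1, so it is given without a test. A ratio within a library does not depend on how libraries were scaled to each other.

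The order of levels, in FPKM and so per length, also differed. In SHR it was Cyba, Duox2, Noxa1, Noxo1 and Duoxa2, and in WKY it was Cyba, Noxa1, Duox2, Noxo1 and Duoxa2. Duox2 exceeded Noxa1 in each of the 4 SHR libraries and Noxa1 exceeded Duox2 in each of the 4 WKY libraries. Noxo1 and Duoxa2, next to each other at the low end, did not differ beyond their spread in SHR (8.12 ± 0.593 and 8.10 ± 2.41 FPKM) or in WKY (4.58 ± 1.05 and 3.75 ± 2.14 FPKM). Among all rows of the table, Cyba stood at the 94.3 percentile of mean level in SHR and the 90.04 percentile in WKY, and Duox2 at the 67.6 percentile in SHR and the 47.1 percentile in WKY. Noxa1 stood at the 54.4 percentile in SHR and the 64.4 percentile in WKY.

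Within a strain, Duox2, Duoxa2 and Noxo1 shared part of their order among libraries, and Cyba did not share it in WKY. In WKY, replicates 1 and 2 were above replicates 3 and 4 for Duox2, Duoxa2 and Noxo1, whereas Cyba was lowest in replicate 2 and highest in replicate 4. In SHR, replicate 3 was highest for Duox2, Duoxa2 and Noxo1, and replicate 4 was lowest for Duox2, Noxo1, Noxa1 and Cyba. The root mean square difference between the mean-centred log2 profiles of Duox2 and Duoxa2 over the 8 libraries was 0.23. It was 0.26 for Duox2 and Noxo1, 0.42 for Duox2 and Cyba, and 0.86 for Duox2 and Noxa1. Noxo1 was nearer to Cyba (0.25) than to Duox2 or to Duoxa2 (0.38). This measure includes the difference between strains, so it does not describe the order of libraries within a strain.

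**Figure D3:**
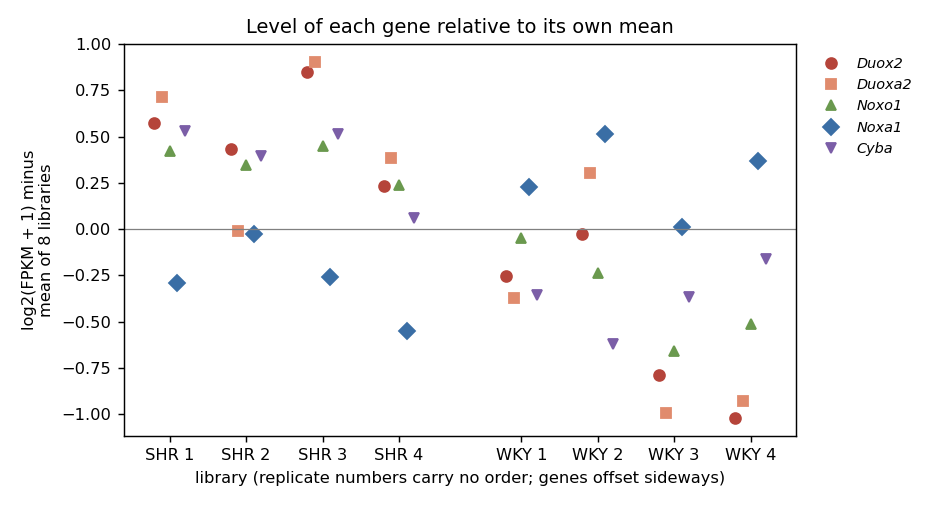
Log2(FPKM + 1) of each oxidase gene minus its mean over the 8 libraries (vertical axis), with 4 SHR libraries left and 4 WKY libraries right. Duox2, Duoxa2, Noxo1 and Cyba lie mostly above 0 in SHR and below 0 in WKY, and Noxa1 lies the other way round.

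By the same measure, the profiles most like each gene's own were sought among 10231 other genes with a symbol and a mean of at least 1 FPKM. Since most of each profile is the difference between strains, these lists hold genes that differ likewise, and they are a description only. For Duox2 they were Hsd3b2, a steroid dehydrogenase gene (0.22), Duoxa2 (0.23), and Mep1b (0.24), which encodes the brush border protease meprin beta. Mep1b averaged 204.9 FPKM in SHR and 111.8 FPKM in WKY. For Duoxa2 they were the sialyltransferase gene St3gal4 (0.22), Trim15 (0.22) and Duox2 (0.23). Among 10231 genes, Duoxa2 thus had rank 2 for likeness to Duox2, and Duox2 had rank 3 for likeness to Duoxa2.

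For Noxo1 the nearest profiles were Gys1, the glycogen synthase gene of muscle and other tissues (0.12), Sgpp2, a sphingosine 1-phosphate phosphatase gene (0.13), and Hsd3b2 (0.14). For Noxa1 they were Cinp (0.09), the translation repressor gene Eif4ebp1 (0.09) and Nrarp, a Notch-regulated gene (0.09). Nrarp averaged 3.68 FPKM in SHR and 5.69 FPKM in WKY. For Cyba they were Pyroxd2 (0.11), the peroxisomal membrane protein gene Pxmp4 (0.12) and Galt of galactose breakdown (0.13). None of these genes was named by more than 1 oxidase gene except Hsd3b2, which was near both Duox2 and Noxo1.

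Among the remaining subunits and regulators of NADPH oxidases the share called was near that of all genes. Of 20 genes in that list, 12 had a row and 10 were tested. Of these, 1 rose, 0 fell and 9 missed the threshold, where 10.9% of all tested genes passed. Their median log2 fold change was -0.13, beside -0.07 over all tested genes. Rac1, the GTPase that Nox1 needs, was at 305.8 ± 27.3 FPKM in SHR and 294.6 ± 14.6 FPKM in WKY (SD, n = 4 each; limma adjusted p = 0.798). The 1 that rose was Arhgef7, an exchange factor for Rac and Cdc42, at 18.6 ± 2.56 FPKM in SHR and 13.8 ± 0.267 FPKM in WKY (adjusted p = 0.0495). That call was lost in 7 of 8 fits without a library. Duox1, Duoxa1, Nox4 and Ncf4 were not analysed here.

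**Figure D4:**
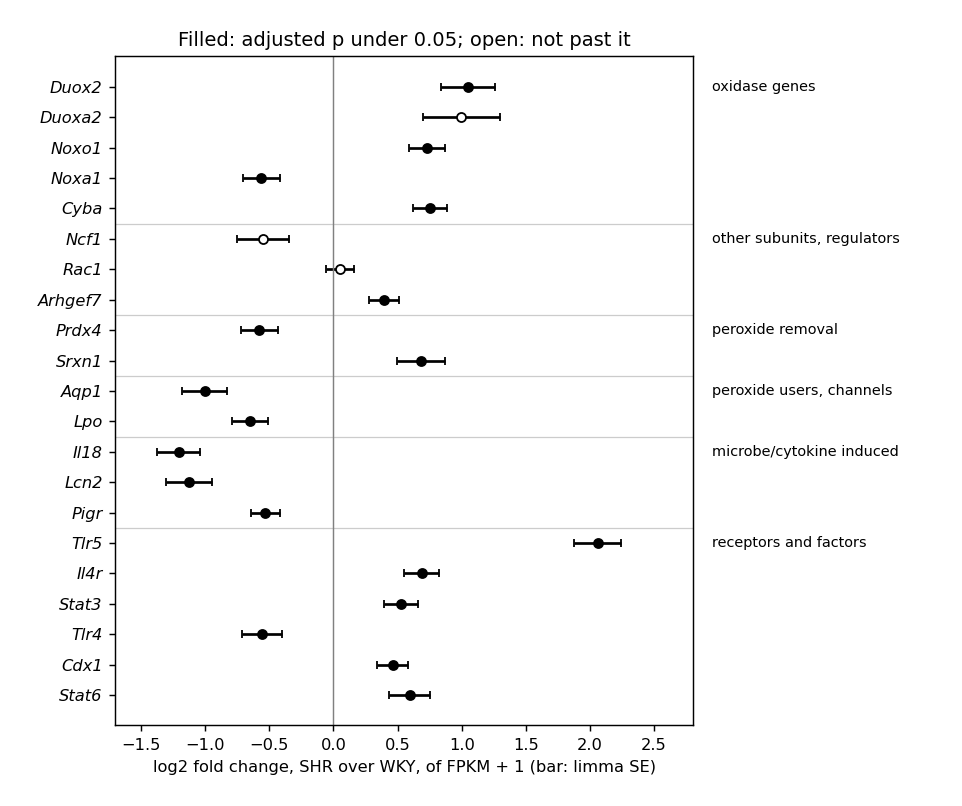
Log2 fold change of FPKM + 1, SHR over WKY (horizontal axis), with limma's SE, for the oxidase genes and for called or core genes of the related lists. Filled points passed an adjusted p of 0.05; Duox2, Noxo1 and Cyba lie right of 0, and Noxa1 (-0.56) lies left of it.

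Among enzymes that remove superoxide and peroxide, 1 rose and 1 fell, a share near the 10.9% called among all tested genes. All 20 that had a row were tested (of 23 listed), and the other 18 did not pass, with a median of -0.09 beside -0.07 over all tested genes. The 1 that rose was Srxn1, which repairs oxidized peroxiredoxins, at 9.19 ± 2.51 FPKM in SHR and 5.23 ± 0.883 FPKM in WKY (SD, n = 4 each; limma adjusted p = 0.0354). The 1 that fell was Prdx4, the peroxiredoxin of the endoplasmic reticulum, at 26.5 ± 3.40 FPKM in SHR and 40.3 ± 7.21 FPKM in WKY (adjusted p = 0.0233). The call was lost in 6 of 8 fits without a library for Srxn1 and in 4 of 8 for Prdx4. Gpx2, the glutathione peroxidase of the gut, spread widely in WKY, at 216.9 ± 30.7 FPKM in SHR and 178.3 ± 116.4 FPKM in WKY (adjusted p = 0.463).

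Of 10 genes that use peroxide or conduct it through membranes, 5 had a row and were tested, of which 2 fell, 0 rose and 3 did not pass, where 7.48% of all tested genes were lower and 3.4% higher. The median log2 fold change was -0.74, beside -0.07 over all tested genes. It is the value of the water channel gene Aqp3, which did not pass (limma adjusted p = 0.649), and all 5 values were negative. Lpo, which encodes lactoperoxidase, an enzyme that turns hydrogen peroxide into antimicrobial oxidants, was at 55.76, 74.52, 52.23 and 46.58 FPKM in SHR, against 83.01, 99.79, 83.59 and 91.74 FPKM in WKY libraries. The strains did not overlap, in the direction opposite to Duox2, and the log2 fold change was -0.65 ± 0.14 (SE, limma adjusted p = 0.011). The water channel gene Aqp1 fell to 11.7 ± 3.57 FPKM in SHR, against 24.1 ± 3.68 FPKM in WKY (adjusted p = 0.00358). Aqp8, a channel that also passes peroxide, was at 2.08, 0.31, 5.88 and 3.82 FPKM in SHR, against 8.68, 20.13, 95.41 and 31.17 FPKM in WKY libraries, and did not pass (adjusted p = 0.0681) in spite of separate strains.

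Genes that microbes and cytokines induce in epithelium lay on both sides of 0. Of 20 listed, 11 had a row and 10 were tested, of which 0 rose, 3 fell and 7 missed the threshold, where 3.4% of all tested genes were higher and 7.48% lower. A count of 0 higher among 10 is near that background. With the authors' q-values 2 were higher and 4 lower, without WKY replicate 2 it was 2 and 3, and with the replicate block or without SHR replicate 1 it was 1 and 3. The median log2 fold change was -0.0033, beside -0.07 over all tested genes. The cytokine gene Il18 fell to 37.96 ± 4.96 FPKM in SHR, against 90.5 ± 23.8 FPKM in WKY (SD, n = 4 each; limma adjusted p = 0.000632). Lcn2, which encodes an iron-scavenging lipocalin, fell to 1.14 ± 0.449 FPKM in SHR, against 3.66 ± 1.02 FPKM in WKY (adjusted p = 0.00206). Pigr, the receptor that carries immunoglobulin A into the lumen, fell to 748.4 ± 36.9 FPKM in SHR, against 1087 ± 120.7 FPKM in WKY (adjusted p = 0.0106, and 0.0989 after quantile normalization). Ccl20, a chemokine gene of the epithelium, was at 39.62, 18.75, 15.16 and 16.91 FPKM in SHR, against 10.44, 13.7, 11.31 and 8.5 FPKM in WKY libraries. The strains did not overlap, with SHR above, but the log2 fold change of 0.89 ± 0.27 (SE) did not pass (limma adjusted p = 0.062, 0.0432 with the replicate block and 0.0307 without SHR replicate 1).

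Among receptors and transcription factors known upstream of Duox2 or Nox1, more rose than fell. Of 34 listed, 30 had a row and were tested, of which 5 rose, 1 fell and 24 missed the threshold, where 3.4% of all tested genes were higher and 7.48% lower. The numbers higher and lower were 7 and 0 after quantile normalization, 6 and 0 after median centring, and 5 and 0 with the replicate block. Their median log2 fold change was 0.13, beside -0.07 over all tested genes. The flagellin receptor gene Tlr5 was at 17.19, 27.57, 13.69 and 20.19 FPKM in SHR, against 4.04, 3.59, 4.58 and 3.13 FPKM in WKY libraries, and limma gave a log2 fold change of 2.06 ± 0.18 (SE, adjusted p = 1.31e-05). Every SHR library was far above every WKY library. Its order among SHR libraries was not that of Duox2, since SHR replicate 3 was lowest for Tlr5 and highest for Duox2.

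Il4r, the receptor chain of interleukins 4 and 13, rose to 22.3 ± 3.40 FPKM in SHR, against 13.4 ± 2.07 FPKM in WKY (SD, n = 4 each; limma adjusted p = 0.0073). Stat6, which acts below that receptor, rose to 37.4 ± 6.00 FPKM in SHR, against 24.6 ± 5.47 FPKM in WKY (adjusted p = 0.0322), and Stat3, which acts below the interleukin 22 receptor, to 50.3 ± 6.92 FPKM, against 34.6 ± 5.20 FPKM in WKY (adjusted p = 0.0247). The intestinal transcription factor gene Cdx1 rose to 172.8 ± 21.2 FPKM in SHR, against 125.0 ± 12.7 FPKM in WKY (adjusted p = 0.0303). The lipopolysaccharide receptor gene Tlr4 was the 1 that fell, to 10.4 ± 1.24 FPKM in SHR, against 15.99 ± 3.56 FPKM in WKY (adjusted p = 0.0371). The call was lost in 3 of 8 fits without a library for Stat3, 5 for Cdx1, and 6 each for Stat6 and Tlr4. That of Tlr4 was also lost after quantile normalization (adjusted p = 0.0517) and median centring (0.0513).

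Genes next to 3 of the oxidase genes were read as well. The order of genes came from the black rat assembly Rrattus_CSIRO_v1, which holds Duoxa2, Noxo1 and Noxa1 under these symbols. Whether that order holds in SHR and WKY was not tested. The 2 nearest tested genes on each side that this assembly lists under the same symbol were read. A gene without a matching symbol there was passed over, and Duox2 was not among the genes read beside Duoxa2. Of the 12 neighbours read, 2 passed, where 10.9% of all tested genes did. Next to Noxo1, the nearest genes read were Gfer and Tbl3, with log2 fold changes of -0.13 ± 0.13 and 0.01 ± 0.14 (SE, limma adjusted p = 0.576 and 0.96). Slc9a3r2, beyond Gfer, fell by 0.78 ± 0.14 (adjusted p = 0.00402). Next to Noxa1, Nrarp fell by 0.51 ± 0.14 (adjusted p = 0.0391, with the call gone when any of 6 of the 8 libraries was left out), and Entpd8 was at 21.5 ± 3.66 FPKM in SHR and 19.5 ± 1.68 FPKM in WKY (adjusted p = 0.569). Entpd8 overlaps Noxa1 in that annotation. Whether counting used strand is not given here, so reads of the overlap cannot be told apart.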

How the data were processed

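Per the labels' protocols, poly(A)-selected RNA was made into directional libraries and sequenced from both ends. The submitters' processing notes list FastQC, Trimmomatic and STAR, with no version and no role for any of them. Build, annotation, counter and test are not stated. No header or label names the unit of the deposited values per gene and library. They were read as FPKM, because their ratio to the authors' mean CPM differs by gene as a length would. Per the file headers, the authors' table further gives mean CPM by strain, the log2 fold change, and p- and q-values (here each p-value and q-value is the authors' own). The 3 other tables repeat it and were not used. Values are rounded to 2 decimals, so reads were not recovered and no counting error is given.

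Genes that reached 1 FPKM in 4 or more libraries (11069 of 11762) were tested as log2(FPKM + 1) with limma 3.58.1 in R 4.3.3, by a two-sided moderated test of strain with trended and robust variance shrinkage and Benjamini-Hochberg adjustment (threshold 0.05). The scale understates changes of low genes. Ratios used log2 of FPKM + 0.1. On simulated data for SHR against WKY over 10990 genes, 1.5-fold changes were recovered for 30% of the genes given them, 2-fold changes for 87% and 4-fold changes for 100%. False calls were 10 of 162. The simulated noise was drawn independently for each gene and library, and only genes above a low mean level were given changes. Shifts that genes of a library share were not simulated, so these rates may not hold for the real libraries. Named genes are the oxidase genes, up to 6 called genes of each of 5 related lists, core oxidase subunits with a row, and the 3 nearest profiles per oxidase gene. The genes and lists were chosen with earlier results of these data known. Neighbouring genes and the ratio of Noxa1 to Noxo1 were added after the values were seen. Settings varied were the pseudocount (0.1 and 5), the filter, the scaling (quantile or median), a replicate block, the libraries included, and the source of the test (the authors' q-values). Figures were drawn with matplotlib 3.10.9.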

Additional observations from a re-analysis of the deposited data

Results flagged for a closer look

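A library is listed here when the gap to its nearest neighbour, relative to the range of its strain's 4 libraries, exceeded Dixon's 95% critical value, which chance does in about 1 of 20 groups. Over the 64 groups examined, 3 values were. The log2 ratio of Duoxa2 to Duox2 in SHR replicate 2 was -1.98, while the other SHR libraries lay between -1.39 and -1.31. Stat3 was at 42.32 FPKM in WKY replicate 2, with the other WKY libraries between 31.23 and 32.56 FPKM. Cybb was at 0.16 FPKM in WKY replicate 2, with the other WKY libraries between 0.58 and 0.66 FPKM.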

How the results depend on the processing

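Duox2, Noxo1, Noxa1 and Cyba kept their direction and their call under both other pseudocounts, without the filter, after quantile normalization or median centring, with the replicate block and by the authors' q-values. Leaving out 1 library gave log2 fold changes of 0.88 to 1.21 for Duox2, 0.83 to 1.26 for Duoxa2, 0.63 to 0.83 for Noxo1, -0.65 to -0.47 for Noxa1 and 0.67 to 0.86 for Cyba. Duoxa2 also passed by the authors' q-values (log2 fold change 1.17). The number of oxidase genes called was 3 to 5 without 1 library. The difference in the Duoxa2 to Duox2 ratio, never past the threshold, was -0.0488 with a pseudocount of 1 and -0.0345 to 0.24 without 1 library. Over all genes the number called was 1204, and 649 to 1569 without 1 library. The number called among other oxidase subunits and regulators was 0 with a pseudocount of 5, 0 with the replicate block, 2 by the authors' q-values and 0 to 1 without 1 library. It was 6 by the authors' q-values and 3 to 5 without 1 library for microbe and cytokine induced genes, 0 to 4 without 1 library for peroxide removal, 2 to 6 for receptors and factors, and 2 in each such fit for peroxide users and channels. The cause was not tested. Not all same-numbered libraries deviated together (correlations across genes of -0.11, -0.04, 0.46 and -0.29 for numbers 1 to 4). The value for number 3 was the largest over all pairs of an SHR and a WKY library. Whether same-numbered libraries share more than a number therefore cannot be told. The block changed no call of an oxidase gene. Among the other named genes, it ended the calls of Arhgef7 (adjusted p = 0.0741), Tlr4 (0.0608), Cdx1 (0.0552) and St3gal4 (0.104). Nrarp lost its call after quantile normalization (0.0828) and median centring (0.0556). The 4 planned ratios over Nox1 and the planned count of promoter motifs were not run. Reads per value are unknown.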

Other observations

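Reg3b and Reg3g, antimicrobial lectin genes of the microbe-induced list, were singled out after their values were seen, because their libraries ranked much as those of Duox2 did. Reg3b was at 760.43, 773.45, 1517.3 and 597.35 FPKM in SHR, against 217.72, 483.62, 46.42 and 52.63 FPKM in WKY libraries. As for Duox2, SHR replicate 3 was highest, SHR replicate 4 lowest within its strain, and WKY replicates 1 and 2 lay above replicates 3 and 4. The strains did not overlap, yet the log2 fold change of 2.74 ± 0.83 (SE) did not pass (limma adjusted p = 0.091, and 0.0328 without WKY replicate 2). Reg3g was at 1257, 1513.14, 2586.64 and 1206.12 FPKM in SHR, against 1223.27, 1587.93, 848.5 and 775.57 FPKM in WKY libraries, with overlapping strains (adjusted p = 0.242).

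In the black rat order, Nrarp was the nearest gene read on one side of Noxa1, with Entpd8 overlapping Noxa1 on the other. Nrarp was also rank 3 of 10231 genes in likeness of profile to Noxa1, with a root mean square difference of 0.09. It was at 3.94, 3.99, 3.94 and 2.84 FPKM in SHR, against 5.9, 6.81, 4.38 and 5.67 FPKM in WKY libraries.

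The crypt genes Cd44, Smoc2 and Ephb3 were the 3 called among 10 tested crypt base and stem cell markers, all lower in SHR, where 7.48% of all tested genes were lower. Cd44 was at 20.1 ± 4.04 FPKM in SHR and 36.3 ± 4.20 FPKM in WKY (SD, n = 4 each; limma adjusted p = 0.00422). The summed level of the crypt list overlapped, at 361.5 to 443.7 FPKM in SHR and 387.5 to 477.1 FPKM in WKY libraries. Of 12 surface colonocyte markers 11 were tested. Of these 0 rose, 1 fell and 10 missed the threshold, where 3.4% of all tested genes were higher and 7.48% lower. These counts are near that background. The median log2 fold change of these markers was 0.32, beside -0.07 over all tested genes, with 9 values positive and 2 negative. Their summed level overlapped, at 25780 to 30810 FPKM in SHR and 23000 to 29780 FPKM in WKY libraries. The 1 that fell was Alpi, an intestinal alkaline phosphatase gene, listed at 0.0, 0.02, 0.0 and 0.0 FPKM in SHR, against 8.35, 9.04, 19.31 and 15.68 FPKM in WKY libraries (limma adjusted p = 4.00e-07). Aqp8 of the same list was also lower in SHR libraries, without passing (adjusted p = 0.0681). Slc26a3 and Car4 were at 653.2 ± 79.2 and 574.1 ± 134.7 FPKM in SHR, against 435.5 ± 139.7 and 392.7 ± 78.3 FPKM in WKY, and did not pass (adjusted p = 0.0599 and 0.077). With the replicate block both passed (limma adjusted p = 0.0161 and 0.0338), and Slc26a3 also passed without WKY replicate 3 (0.00935).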
